A study of Mus musculus with 52 samples.

Results

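The libraries described here measure what the MEK inhibitor PD0325901 did to mouse extended pluripotent stem cells (EPSCs) when it was given together with the GSK3 inhibitor CHIR-99021 (CHIR). They are 2 libraries of EPSCs treated with CHIR and PD0325901 and 2 libraries of EPSCs treated with CHIR alone, 4 of the 52 bulk RNA libraries of the series. All 4 were chosen by their labels, which give the line mc6-1/Mu-mClover3-10#, a WT genotype and a treatment of 2 days. A second reference was the pair treated with CHIR and Elvitegravir, an inhibitor of a viral integrase. Untreated EPSCs of the same set and EPSCs given CHIR and CD1530, an agonist of a retinoic acid receptor, served to place the levels, with 2 libraries each. EPSCs given all the small molecules for 2 days, also 2 libraries, entered the fit only. The labels give neither doses nor the base medium. Nor do they name separate cultures for the replicate libraries, so the p-values measure only the spread between these libraries, which may be technical. All libraries come from 1 line.

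CHIR stabilises beta-catenin by blocking GSK3. PD0325901 binds MEK, the kinase that activates ERK, and so cuts the signal that runs from FGF receptors through RAS and RAF to ERK. ERK switches on its own inhibitors, such as the Sprouty proteins and the dual-specificity phosphatases, and immediate early and ETS transcription factors. In the mouse blastocyst FGF4 made by the epiblast drives neighbouring cells to primitive endoderm through this pathway, and MEK inhibition with CHIR is widely used to keep mouse embryonic stem cells in a naive state.

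The labelled cell type was checked on its markers in CPM, which are counts scaled to the normalised total of the library. The 11 tested pluripotency markers summed to 2210 and 2840 CPM with CHIR, 3510 and 4670 with PD0325901 and 5800 and 6040 in untreated EPSCs. Sox2, a defining marker, had no count in the first set and was not tested. Slc7a5 and Mvd, genes of other lists, had no count there either. Whether these zeros reflect absent RNA or the way reads were counted was not tested. The summed level of 19 feeder fibroblast markers was 551 and 430 CPM with CHIR, 586 and 623 with Elvitegravir, 607 and 699 with PD0325901 and 1790 in both EPSC libraries. In that list 5 of 19 tested markers rose with PD0325901 against CHIR, where 3.69% of all tested genes rose. Of these markers 3 rose in all 3 comparisons described below, as did 2.83% of all tested genes. Among them was Col3a1, which had 1.08 and 1.85 CPM with CHIR and 8.75 and 6.99 with PD0325901. The part of these cells in the results below was not tested. In bulk RNA, fewer cells of a type and less RNA per cell cannot be told apart.

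Library 2 of both groups stood apart from library 1 in a way that followed base composition. The SD of the log2 difference between the libraries of a group was 0.565 with CHIR and 0.483 with PD0325901, against 0.137 to 0.165 in the other 4 groups of the set. With CHIR, library 2 was higher by a median of 0.61 on the log2 scale for genes under 40% GC and lower, at -0.83, for genes over 60% GC. With PD0325901 the same medians were 0.41 and -0.58. Library totals were 45.3 and 26.3 M counts with CHIR and 107 and 23.9 M with PD0325901, so the depth of the PD0325901 libraries was also unequal. Changes from CHIR were therefore read in 3 comparisons. These were PD0325901 against CHIR, the same with library 1 only of both groups, and PD0325901 against the Elvitegravir group. The 3 comparisons share PD0325901 libraries and are not independent. Contrasts with untreated EPSCs and with CD1530 were read only with both PD0325901 libraries, so they carry the deviation of library 2.

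**Figure D1:**
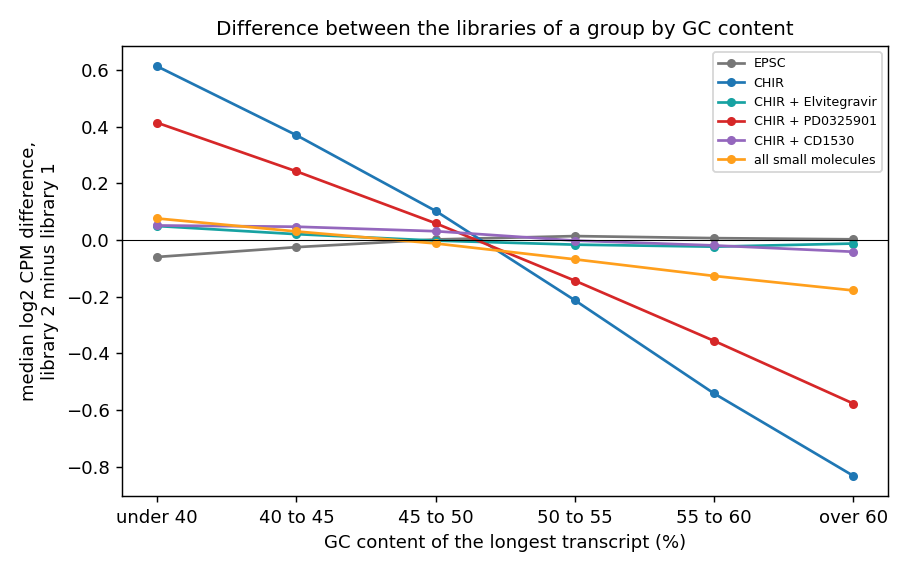
Median log2 CPM difference between library 2 and library 1 of each group (y axis) for genes in 6 classes of GC content (x axis, percent). The CHIR line runs from 0.61 to -0.83 and the PD0325901 line from 0.41 to -0.58, while the lines of the other groups stay nearer to 0.

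With PD0325901, 729 genes rose and 297 fell against CHIR alone, 3.69% and 1.50% of 19756 tested genes (edgeR's quasi-likelihood test, adjusted p below 0.05 and a change of at least 1 on the log2 scale). With library 1 only, 947 rose and 409 fell, 4.61% and 1.99% of 20540 genes. Against the Elvitegravir group 845 rose and 497 fell, which is 4.28% and 2.52%. In all 3 comparisons 559 genes were called risen and 215 fallen, 2.83% and 1.09% of genes and 76.7% and 72.4% of those called against CHIR. A fit of only the 6 libraries of CHIR, Elvitegravir and PD0325901 called 322 genes, of which 309 were among these 774. Of the 559 risen genes 370 were protein coding and 78 were lincRNAs, and of the 215 fallen genes 203 were protein coding. Measured against untreated EPSCs, 399 of the 559 risen genes were called above and 42 below the EPSC level, and of the 215 fallen genes 52 were above and 48 below. Over all tested genes 15.3% were called above and 7.18% below EPSCs, so the share of risen genes below EPSCs was near that of all genes.

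**Figure D2:**
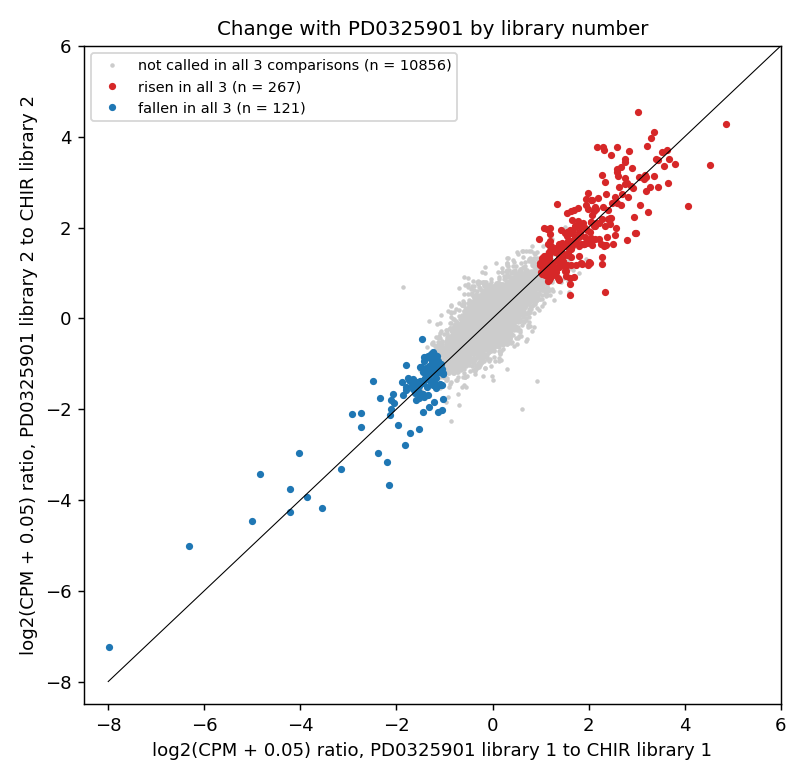
Log2 ratio of PD0325901 to CHIR in library 1 (x axis) and library 2 (y axis) for 11244 genes at 5 CPM or more in at least 1 of the 4 libraries, with 0.05 CPM added. Red and blue points are the 267 risen and 121 fallen genes called in all 3 comparisons, and they lie on the same side of 0 in both axes.

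Among the inhibitors that ERK induces, 3 of 20 tested genes fell and none rose with PD0325901, where 1.50% of all tested genes fell. The list median was -0.25 on the log2 scale against 0.0 over all tested genes. Dusp4, a phosphatase that inactivates ERK, stood at 43.3 and 37.2 CPM with CHIR and at 14.6 and 14.1 with PD0325901. The groups did not overlap, and the Elvitegravir libraries, at 46.8 and 45 CPM, lay with CHIR. The log2 change of Dusp4 was -1.49 ± 0.12 (SE; edgeR, adjusted p = 8.4e-05). Dusp6, the cytoplasmic ERK phosphatase, went from 82.9 and 94.7 to 37 and 44.9 CPM, a change of -1.12 ± 0.13 (edgeR, adjusted p = 0.00054), but was not called against the Elvitegravir group, where the change was -0.99. Spry4, a Sprouty inhibitor of the pathway, was at 41 and 30.8 CPM with CHIR and 17.1 and 17.9 with PD0325901, and changed by -1.04 ± 0.15 (edgeR, adjusted p = 0.002). Its call was lost without library 1 of either group, in the 6-library fit and after a correction for GC content, and Dusp6 lost its call without library 1 of PD0325901. Spry2 did not follow them: its levels were 50.6 and 45.1 CPM with CHIR and 46.7 and 45.7 with PD0325901, a change of -0.05 ± 0.1 (edgeR, adjusted p = 0.86). Both Spry2 and Spry4 were already far below untreated EPSCs, where Spry2 had 219 and 206 CPM and Spry4 had 174 and 182.

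Of 25 tested transcription factor targets of ERK, 3 fell and 1 rose, all in the 3 comparisons, beside 1.09% and 2.83% of all tested genes. The immediate early gene Egr1 was at 15.1 and 7.81 CPM with CHIR, 17.3 and 16.2 with Elvitegravir and 1.66 and 0.732 with PD0325901. Every PD0325901 value was below every reference value, and the change was -3.14 ± 0.36 (edgeR, adjusted p = 0.00053), the largest of the list. The ETS factor Etv4 went from 122 and 70.2 to 42.5 and 25.1 CPM, a change of -1.5 ± 0.27 (edgeR, adjusted p = 0.0061). The early response gene Ier3 went from 59.6 and 51.3 to 19.1 CPM in both libraries, a change of -1.54 ± 0.14 (edgeR, adjusted p = 0.00011). Mycn was the riser, from 11.1 and 8.14 to 22.9 and 19.5 CPM, a change of 1.13 ± 0.17 (edgeR, adjusted p = 0.0027), which was lost without library 2 of CHIR. Etv5, another ETS factor, had 138 and 123 CPM with CHIR and 227 and 182 with PD0325901, a change of 0.65 that did not reach the threshold of size. Fos, at -0.78, and Myc, at 0.27, were not called. Mycn and Etv4 also lost their calls in the 6-library fit. The kinases and adaptors of the pathway did not pass the test: 0 of 29 RAS to ERK cascade genes were called, by edgeR or DESeq2, 5 had an unadjusted p under 0.05 (edgeR), and the log2 changes ran from -0.59 to 0.53.

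**Figure D3:**
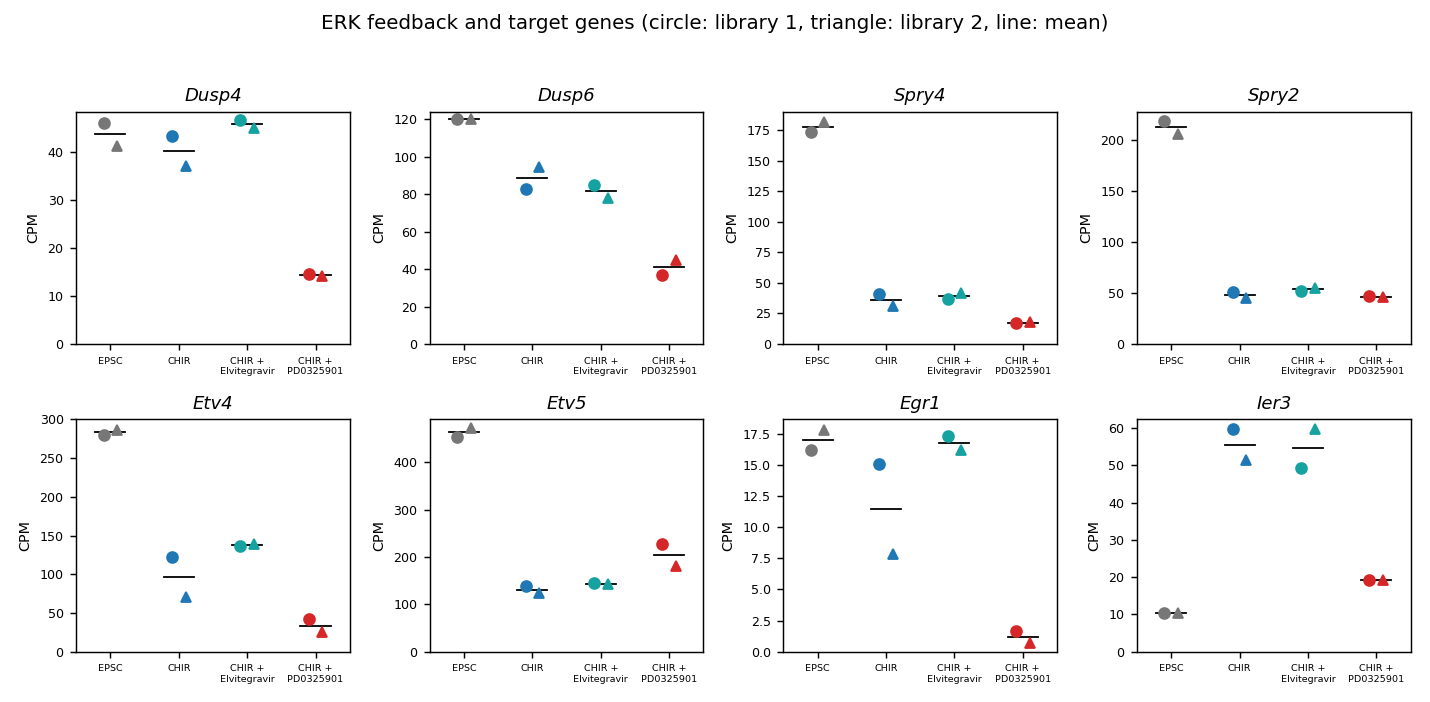
CPM (y axis, from 0) of 8 ERK feedback and target genes in EPSCs, with CHIR, with CHIR and Elvitegravir and with CHIR and PD0325901; circles are library 1, triangles library 2 and lines the mean. Egr1 lies at 1.66 and 0.732 CPM with PD0325901 against 15.1 and 7.81 with CHIR, whereas Spry2 is at 46.7 and 45.7 against 50.6 and 45.1.

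Many primitive and visceral endoderm genes were lower with PD0325901 than with CHIR, but the summed level of the list overlapped. It was 2840 and 2150 CPM with CHIR, 2280 and 1920 with PD0325901 and 3660 and 3780 in EPSCs. Of 45 tested genes of this list 21 fell and 2 rose, with a median of -1.21. In all 3 comparisons 20 fell and 2 rose, beside 1.09% and 2.83% of all tested genes. Of the 11 transcription factors of this list 8 fell. Gata6, which specifies primitive endoderm, was at 1.51 and 1.59 CPM in EPSCs, 12.3 and 11.8 with CHIR, 15.1 and 13.6 with Elvitegravir and 0.614 and 0.569 with PD0325901. The PD0325901 libraries were below all others, 20.0-fold below CHIR, with a change of -4.32 ± 0.16 (edgeR, adjusted p = 3.8e-07). Gata4, its partner, was at 17.3 and 10.2 CPM with CHIR and 2.53 and 2.36 with PD0325901, a change of -2.49 ± 0.22 (edgeR, adjusted p = 0.00011). Sox17 changed by -2.61, Sox7 by -4.0, Foxa2 by -2.24, Hnf4a by -2.84 and Foxq1 by -3.73, all factors of endoderm or its derivatives. Their mean levels with CHIR were low, in the same order 3.11, 6.12, 1.86, 2.18 and 2.76 CPM.

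Of 9 receptor or endocytosis genes of the list 5 fell and 4 were not called. Cubn, on mouse chromosome 2 (mm10, chr2:13276338-13491813, minus strand), encodes cubilin, an endocytic receptor. It had 0.232 and 0.257 CPM in EPSCs, 150 and 155 with CHIR, 128 in both Elvitegravir libraries and 0.537 and 0.976 with PD0325901. The change was -7.82 ± 0.29 (edgeR, adjusted p = 3.8e-07), or 227-fold lower, and the level stayed above untreated EPSCs at 1.45 on the log2 scale (edgeR, adjusted p = 0.013). Amn, which carries cubilin to the cell surface, changed by -2.65. Dab2, an endocytic adaptor, went from 113 and 101 to 6.08 and 7.4 CPM, a change of -4.0 ± 0.13 (edgeR, adjusted p = 2.5e-07). Pdgfra, a receptor of primitive endoderm, went from 18.2 and 15.1 to 2.68 and 2.85 CPM, 6.07-fold lower. Lrp2, another endocytic receptor, was not called, with 252 and 234 CPM against 141 and 191. Stra6, Lrpap1 and Thbd were not called either, at 0.49, 0.23 and 0.16 on the log2 scale.

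Matrix genes split. Lama1, a laminin chain (mm10, chr17:67697259-67822647, plus strand), was at 78.7 and 83.9 CPM in EPSCs, 108 and 86 with CHIR and 3.3 and 3.82 with PD0325901, a change of -4.78 ± 0.16 (edgeR, adjusted p = 2.5e-07). PD0325901 left it below EPSCs, CHIR and Elvitegravir alike. The type IV collagens Col4a1 and Col4a2 changed by -1.54 and -1.7. Lamc1, a laminin chain used widely, was not called at 352 and 278 CPM against 367 and 333. In a list of 28 basement membrane genes, which shares members with the endoderm list, 3 fell and 2 rose, beside 1.50% and 3.69% of all tested genes. Among the risers of that list was Lama3, a chain of an epithelial laminin. The endoderm risers were Fst, an activin antagonist, and Apob, an apolipoprotein that went from 4.68 and 7.85 to 19.6 and 34.5 CPM. In the 6-library fit 14 of the endoderm genes were called fallen, and Hnf4a, Foxa2 and Col4a1 lost their calls there. Col4a1 and Fst also lost theirs without library 1 of CHIR or library 2 of PD0325901.

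Of 23 naive pluripotency genes 10 rose and none fell, all in the 3 comparisons, with a median of 0.93. The share of all tested genes risen in the 3 comparisons was 2.83%. The homeobox factor Nanog was at 223 and 233 CPM in EPSCs, 22.6 and 21.8 with CHIR, 20.6 and 23.9 with Elvitegravir and 123 and 91.5 with PD0325901. PD0325901 thus lay between CHIR and EPSCs, with a change of 2.27 ± 0.16 from CHIR (edgeR, adjusted p = 4.1e-05) and -1.09 from EPSCs (edgeR, adjusted p = 0.00033). Klf2, a zinc finger factor whose protein is a known ERK substrate, went from 35.7 and 27 to 118 and 93.7 CPM, a change of 1.75 ± 0.18 (edgeR, adjusted p = 0.00024). Prdm14, a repressor of FGF signalling genes, went from 0.181 and 0.148 to 1.99 and 1.95 CPM, a change of 3.54 ± 0.46 (edgeR, adjusted p = 0.0012). Its EPSC level was 5.41 and 7.28 CPM. Jam2, a junctional adhesion molecule, went from 5.56 and 8.84 to 54.3 and 65.7 CPM, 8.39-fold higher, against 220 and 217 in EPSCs. Fbxo15, Manba, Nr0b1, Tcl1, Tet2 and Tfcp2l1 also rose, by 1.67, 1.75, 1.7, 1.63, 1.07 and 1.01. Tfcp2l1 lost its call without library 1 of either group, and Tcl1 in the 6-library fit.

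The other 13 naive genes were not called. Klf4 had 170 and 196 CPM in EPSCs, 6.64 and 2.81 with CHIR and 10.1 and 3.5 with PD0325901, so its values overlapped those of CHIR. Esrrb, at 33 and 30.6 against 64.2 and 58.1 CPM, changed by 0.95 and missed the threshold of size. Against untreated EPSCs, 15 of the 23 naive genes were lower with PD0325901 and none were higher, where 7.18% of all genes were called lower. Of 9 core pluripotency genes only Tdgf1, a co-receptor of Nodal, was called, from 570 and 478 to 1370 and 962 CPM, a call lost without library 1 of PD0325901 and in the 6-library fit. Pou5f1 (Oct4) was at 66.9 and 41 CPM with CHIR, 87.7 and 83.8 with Elvitegravir and 102 and 77.8 with PD0325901, and changed by 0.74 against CHIR and 0.07 against the Elvitegravir group. Fgf4, the epiblast ligand of the pathway, rose from 26.7 and 32.4 to 104 and 103 CPM, a change of 1.81 ± 0.21 (edgeR, adjusted p = 0.0005). In EPSCs it was at 183 and 178 CPM.

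Genes that mark the 2-cell embryo and the 2-cell-like state rose with PD0325901. Of 46 listed genes 38 were tested, 34 rose and none fell, with a median of 2.86. The same 34 rose in all 3 comparisons, where 2.83% of all tested genes did. They include 9 copies of Zscan4, a family of zinc finger proteins active at genome activation in the 2-cell embryo. Not all copies need encode a protein. Zscan4a is annotated as an unprocessed pseudogene. Zscan4-ps1, Zscan4-ps2 and Zscan4-ps3 carry pseudogene symbols but are annotated as protein coding. Zscan4d had no count in either EPSC library, 2.53 and 4 CPM with CHIR, 2.62 and 3.5 with Elvitegravir and 32 and 53.1 with PD0325901. Zscan4c had no count in EPSCs, 2.94 and 3.77 CPM with CHIR and 32.5 and 43.1 with PD0325901. A count of 0 allows up to 0.064 and 0.0698 CPM in the EPSC libraries, counting error only. The groups did not overlap, and the changes from CHIR were 3.72 ± 0.29 for Zscan4d (edgeR, adjusted p = 0.0001) and 3.5 ± 0.22 for Zscan4c (edgeR, adjusted p = 4.1e-05).

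The sequences before the start sites of 3 Zscan4 copies are shown because these copies moved together and reads may be split between them uncertainly. They come from RefSeq (GRCm38.p6) and are Zscan4c, chr7:11005495-11005744 on the plus strand, Zscan4d, chr7:11166160-11166398 on the minus strand, and Zscan4f, chr7:11397665-11397914 on the plus strand, each ending at the base before the annotated gene. Capitals mark the TATA box motif TATAAA.
Zscan4c: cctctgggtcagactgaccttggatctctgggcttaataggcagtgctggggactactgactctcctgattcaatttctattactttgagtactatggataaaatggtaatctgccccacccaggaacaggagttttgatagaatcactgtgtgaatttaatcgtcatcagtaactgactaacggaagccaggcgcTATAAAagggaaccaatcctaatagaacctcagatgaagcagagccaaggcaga
Zscan4d: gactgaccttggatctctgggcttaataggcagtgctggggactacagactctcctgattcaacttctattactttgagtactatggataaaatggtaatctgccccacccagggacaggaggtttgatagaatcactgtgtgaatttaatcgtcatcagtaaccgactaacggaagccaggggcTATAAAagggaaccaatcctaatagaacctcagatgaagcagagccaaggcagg
Zscan4f: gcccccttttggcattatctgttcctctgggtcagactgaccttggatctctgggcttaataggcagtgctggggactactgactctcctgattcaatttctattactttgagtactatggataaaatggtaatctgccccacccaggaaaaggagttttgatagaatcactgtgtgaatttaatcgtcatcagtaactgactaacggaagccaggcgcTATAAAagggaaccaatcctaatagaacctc
Over their aligned bases Zscan4c and Zscan4d were 97.1% identical (232 of 239), Zscan4c and Zscan4f 99.6% (226 of 227) and Zscan4d and Zscan4f 96.8% (209 of 216). In Zscan4c the motif starts 54 bases before the gene. Identity was measured for these windows and not for the transcripts, so how reads were split between the copies was not tested.

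Motifs were counted in the 250 bases before the RefSeq start, on both strands, for the 20977 genes of the counts table with such a window. AGATAA, bound by GATA factors, was in 10.7% of all windows, in 3 of 32 endoderm windows and in 6 of 21 windows of 2-cell-like genes. A motif of the 2-cell factor DUX was in 0.0334% of all windows and in 0 of 32 and 0 of 21 of these lists. TATAAA was added after the Zscan4 windows had been read and the other motifs counted. It was in 13.6% of all windows, 8 of 32 endoderm windows and 7 of 21 windows of 2-cell-like genes, among which the Zscan4 copies are near duplicates. A match is a description of the letters only.

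The other 2-cell-like genes gave the same direction. All 5 Usp17l deubiquitinase genes rose, by 2.33 to 2.9 on the log2 scale, and Zfp352, a zinc finger gene, went from 0.542 and 0.518 to 2.5 and 4.15 CPM. The 4 tested genes that were not called were Spz1, Tdpoz2, Tdpoz3 and Sp110, all under 2 CPM with PD0325901. All 38 tested genes were called above untreated EPSCs, where 25 of them had no count in either library, and 15.3% of all genes were called above EPSCs. Those 25 passed the low-count filter only through treated groups and could not be called below EPSCs. The count of 38 was thus partly fixed by the filter. The 6-library fit called 20 of the 38 risen. Arl14epl and Calcoco2, which are not in the list, rose as well. Calcoco2, an autophagy receptor, went from 2.08 and 2.81 to 26.9 and 22.5 CPM. Arl14epl went from 3.52 and 3.59 to 32.7 and 31.6 CPM. Unlike the listed genes it was well detected in EPSCs, at 9.67 and 11.7 CPM, and it had 3.53 and 3.3 with CD1530.

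**Figure D4:**
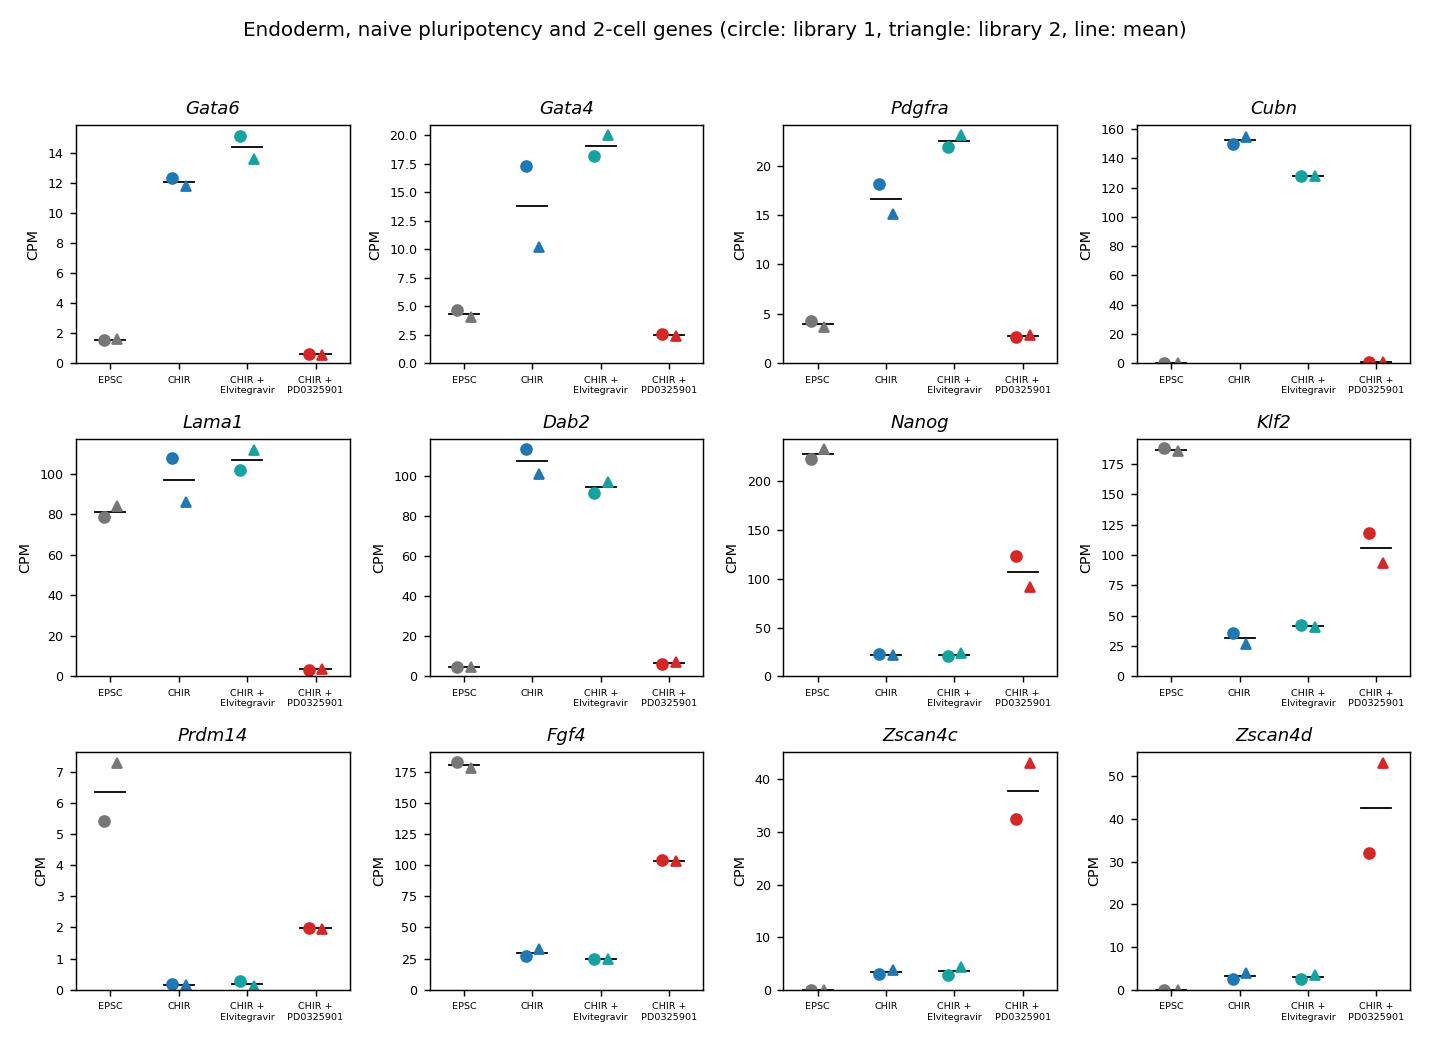
CPM (y axis, from 0) of 12 lineage genes in EPSCs, with CHIR, with CHIR and Elvitegravir and with CHIR and PD0325901; circles are library 1, triangles library 2 and lines the mean. Gata6 and Cubn are high with CHIR and under 1 CPM with PD0325901, Nanog at 123 and 91.5 CPM lies between CHIR and EPSCs, and Zscan4d at 32 and 53.1 CPM is above both.

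Among 27 trophectoderm genes 13 rose and 1 fell, and 12 rose in all 3 comparisons, with a median of 0.68. The shares of all tested genes were 3.69% risen, 1.50% fallen and 2.83% risen in all 3 comparisons. Gata3, a trophectoderm transcription factor, was at 0.248 and 0.222 CPM with CHIR and 3.54 and 3.01 with PD0325901, a change of 3.78 ± 0.34 (edgeR, adjusted p = 0.00011). Gata2 went from 2.21 and 1.33 to 20.5 and 12.4 CPM, a change of 3.19 ± 0.28 (edgeR, adjusted p = 0.00011). Both had under 1 CPM in EPSCs. The simple epithelial keratins Krt7, Krt8 and Krt18 rose by 2.19, 1.68 and 1.2, and Id2, an inhibitor of basic helix-loop-helix factors, by 2.43. Cdx2, the defining factor of the lineage, was at 1.45 and 0.888 CPM with CHIR and 1.73 and 0.732 with PD0325901 and was not called.

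Smaller numbers of genes moved in the remaining lineage and signalling lists. For comparison, 3.69% of all tested genes rose and 1.50% fell against CHIR, and 2.83% and 1.09% did so in all 3 comparisons. Of 20 Nodal and BMP target genes 8 rose and 1 fell, and 4 rose in all 3 comparisons. The faller, the ligand gene Bmp2, changed by -1.31 against CHIR but by 1.29, the opposite way and not called, against the Elvitegravir group. Its levels were 1.04 and 1.63 CPM with CHIR, 0.268 and 0.167 with Elvitegravir and 0.461 and 0.651 with PD0325901. Lefty2, a Nodal antagonist, went from 51.7 and 51.1 to 136 CPM in both libraries, a change of 1.4 ± 0.17 (edgeR, adjusted p = 0.0007). Nodal itself changed by 1.25 against CHIR and by 0.88 against the Elvitegravir group, where it was not called. Of 31 germline genes 5 rose, 4 of them in all 3 comparisons, and 3 were called risen after the GC correction. Stra8, a retinoic acid target and meiotic gene, was at 206 and 183 CPM with CHIR and 238 and 187 with PD0325901, overlapping values. Of 23 formative and primed genes 3 rose and 1 fell, and Otx2 was not called at 13.2 and 11.5 against 14.1 and 12.8 CPM. Of 21 Wnt target genes 1 rose and 1 fell: Ascl2 by 1.78 and Dkk1, a Wnt antagonist, by -1.63. With 1 call each way the list is too small to compare its share with that of all genes. Dkk1 lost its call without library 1 of PD0325901 and in the 6-library fit. In the DNA methylation list Zfp57, which protects imprints, rose by 1.28 and Tet3, a 5-methylcytosine oxidase, fell to 33.3 and 22.5 CPM from 69.3 and 48.6, a call lost without library 1 of CHIR or library 2 of PD0325901 and in the 6-library fit. In the same list Dnmt3a and Dnmt3b, at 0.23 and -0.24, were not called. Dnmt3l went from 478 and 339 to 910 and 763 CPM, a change of 1.03 that was called against CHIR but in neither other comparison. Of the 13 tested genes of this list 3 rose and 1 fell against CHIR.

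**Figure D5:**
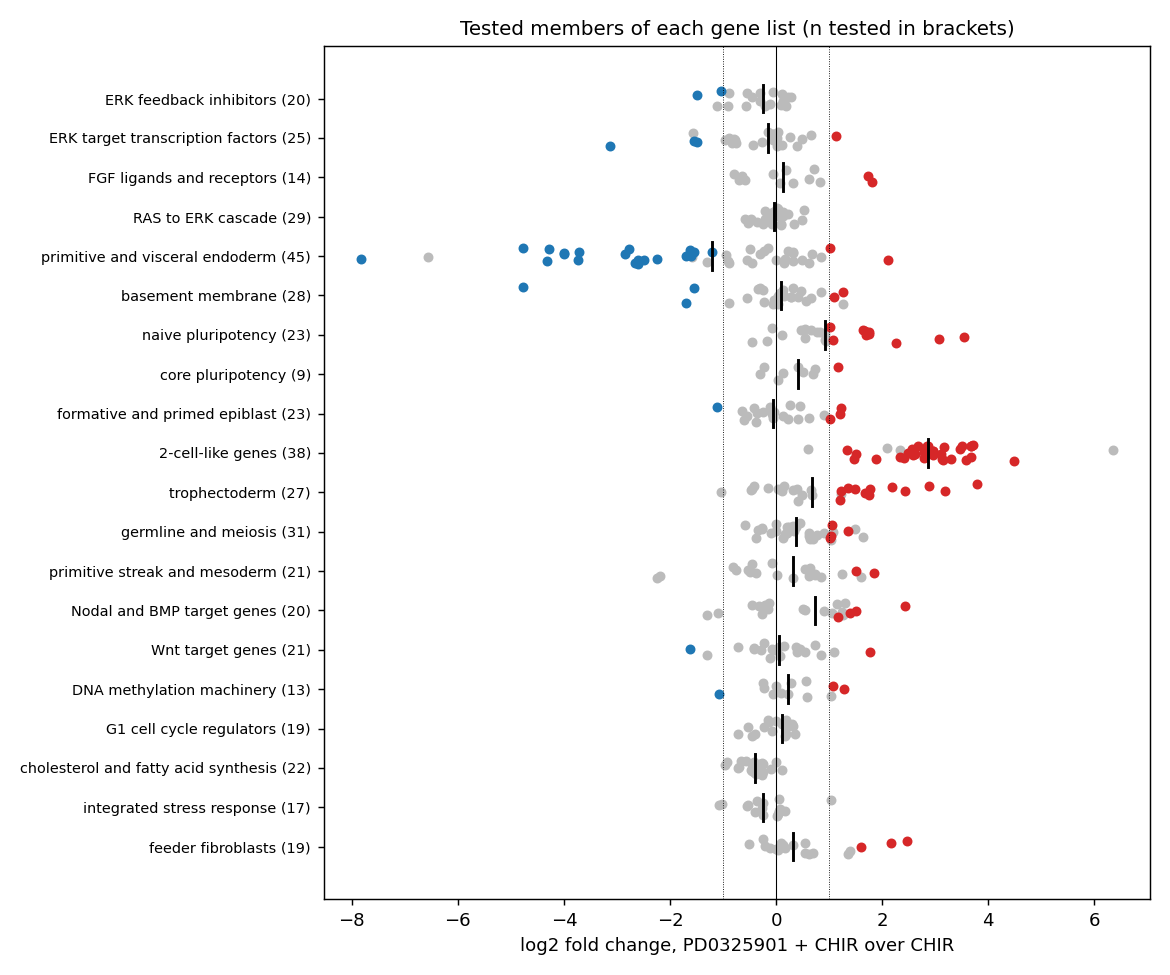
Log2 fold change of PD0325901 with CHIR over CHIR (x axis) for the tested members of 20 gene lists (rows, number tested in brackets). Red and blue points are genes called risen and fallen in all 3 comparisons, grey points are the others, and black bars are medians, such as 2.86 for 2-cell-like genes and -1.21 for endoderm.

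Levels with PD0325901 were also compared with those after CD1530 on top of CHIR. The contrast of the 2 groups is the difference of their effects, since the CHIR mean cancels, and 9.71% of genes were higher and 11.0% lower with PD0325901. Of the 45 endoderm genes 37 were lower and 3 higher with PD0325901; Gata6 had 150 and 148 CPM with CD1530, a difference of -7.95 (edgeR, adjusted p = 2.4e-09). Of the 23 naive genes 9 were higher and 3 lower, and Nanog had 2.33 and 2.42 CPM with CD1530, a difference of 5.49 (edgeR, adjusted p = 5.5e-08). Of the 27 trophectoderm genes 2 were higher and 11 lower with PD0325901. Of the 38 genes of the 2-cell-like list 0 were higher and 3 lower. Zscan4c had 27.8 and 29.2 CPM with CD1530, a difference of 0.4 that was not called (edgeR, adjusted p = 0.12). Dusp4 was at 11.4 and 11.8 CPM with CD1530 and 14.6 and 14.1 with PD0325901, a difference of 0.31 that was not called (edgeR, adjusted p = 0.07). Dusp6, Ier3 and Etv4 were not called either. Spry4, at 3.98 and 4.26 CPM with CD1530, was called higher with PD0325901, and Egr1, at 8.25 and 8.35, lower. Of the 20 inhibitors that ERK induces 3 were higher and 1 lower with PD0325901. Of the 25 transcription factor targets 3 were higher and 7 lower.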

How the data were processed

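The labels' protocols describe libraries from oligo-dT selected, fragmented RNA primed with random hexamers. The submitters' processing notes name Trimmomatic 0.39, STAR 2.7.10b, featureCounts 2.0.6 and the mm10 build. Which annotation, strand and pair settings were used is not stated there. Whole-number counts for 55291 genes were deposited as raw counts. In the first set 70.2% to 80.5% of small counts were even, so mates may have been counted separately; counts were also halved as an alternative.

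The 12 libraries of the first set, with totals from 23.9 to 108 M counts, were fitted with 1 mean per group (edgeR 4.0.16, limma 3.58.1, R 4.3.3; filterByExpr, TMM, quasi-likelihood F test, Benjamini-Hochberg over 19756 genes). Library 1 only means a fit of 10 libraries, where the lone libraries are assumed to vary like the others. The SE is the log2 change divided by the square root of F. CPM are counts scaled to the library total after the TMM adjustment and not to gene length. DESeq2 1.42.0 was an alternative. GENCODE M21 matched 53292 symbols. Members, lists and tests were chosen with earlier results of these data known. Named genes were the 12 largest changes each way called in all 3 comparisons at 10 CPM or more without predicted symbols, up to 4 called members of each list with the smallest adjusted p, preset pathway genes, and 4 each way that were called against CHIR only in part. Other listed genes in the text were chosen after their values were seen. A few genes that this rule names are not reported here.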

Additional observations from a re-analysis of the deposited data

How the results depend on the processing

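Against CHIR the total of 1026 called genes was 1034 with RLE size factors, 1388 without the low-count filter, 1322 with DESeq2, 1129 with all 52 libraries, 1070 with halved counts and 1163 with GC offsets, a correction chosen after seeing the data. It was 322 in the fit of 6 libraries, and leaving out 1 library of CHIR or PD0325901 gave 899 to 1195. The cause of the lower total with 6 libraries was not tested. The fit of 12 libraries takes more of its spread from the other groups. Their SD between libraries was 0.137 to 0.165, against 0.565 with CHIR and 0.483 with PD0325901. Against the Elvitegravir group the total of 1342 became 2032 without the filter and 347 in the 6-library fit, and leaving out 1 library gave 668 (without Elvitegravir library 1) to 2447 (without PD0325901 library 1), with 715 without Elvitegravir library 2; the cause was not tested. Of the 774 genes called in all 3 comparisons, 309 were called in the 6-library fit, 596 without CHIR library 1, 654 without PD0325901 library 2 and 656 without PD0325901 library 1, and 730 or more under each other alternative.

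The replicate numbers are shared by the groups, but 2 numbers do not establish a pairing. The deviations of CHIR and PD0325901 libraries correlated across genes (r = 0.874). With the replicate block the total against CHIR was 1037 over the 12 libraries and 1305 with the 4 libraries alone. With GC offsets the genes called below untreated EPSCs went from 1419 to 972 and those above from 3027 to 3319. Against CD1530 the total went from 4092 to 3482.

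Among uncalled genes the sign turned in these cases, and the cause was not tested. Against the Elvitegravir group the log2 changes were Myc -0.02, Map2k2 -0.20, Mapk3 -0.32, Tbx3 -0.14, Cdx2 -0.19, T -0.10 and Stra8 -0.02. Leaving out 1 library at a time gave ranges of -0.12 to 0.04 for Spry2, -0.13 to 0.20 for Map2k2, -0.29 to 0.89 for Mapk3, -0.46 to 1.37 for Klf4, -0.70 to 0.60 for Cdx2 and -0.05 to 0.30 for Stra8. Without CHIR library 2 the values were Map2k2 -0.13, Mapk3 -0.22 and Cdx2 -0.09, and without PD0325901 library 1 Mapk3 -0.29, Klf4 -0.46, Cdx2 -0.70 and Stra8 -0.05. With library 1 only, Map2k2 was -0.13, and without CHIR library 1 Spry2 was 0.04.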

Other observations

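Cholesterol and fatty acid synthesis genes were mostly lower in sign with PD0325901 without passing the test. Of 22 tested genes 0 were called, 21 were lower and 1 higher against CHIR, with a median of -0.41. DESeq2 called 0 as well, and 13 had an unadjusted p under 0.05 (edgeR). Lss, which closes the sterol ring, went from 65 and 58.6 to 32.4 and 31 CPM, a change of -0.96 (edgeR, adjusted p = 0.00058), and Fasn, the fatty acid synthase, from 961 and 742 to 520 and 549 CPM. None of 19 G1 cell cycle regulators was called against CHIR, by edgeR or DESeq2, and 2 had an unadjusted p under 0.05 (edgeR). Against the Elvitegravir group 2 were called fallen, the D-type cyclin gene Ccnd2 at -1.04 and the cell cycle inhibitor gene Cdkn2a at -1.19. Ccnd1, cyclin D, was at 88.3 and 68.3 CPM with CHIR and 68.2 and 65 with PD0325901.

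Single genes outside the lists also moved. Mmp3, a matrix metalloproteinase, went from 12.9 and 17.1 to 1.06 and 0.895 CPM and was at 122 and 120 in EPSCs. Rab25, a small GTPase of recycling endosomes, went from 18.1 and 18.2 to 3.45 and 2.28 CPM. Ccno, Ppp1r1a, Col1a2 and Septin1 rose and Ano3, Gpc6, Nhs and Lpin1 fell against CHIR, but none of the 8 was called against the Elvitegravir group. Septin1, for example, was at 35.4 and 18.1 CPM with CHIR, 40.2 and 41.7 with Elvitegravir and 93.6 and 46.7 with PD0325901.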
